A study of Arabidopsis thaliana with 24 samples.

Results

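The 81 genes described here had higher transcript levels in Arabidopsis thaliana plants lacking both MKK1 and MKK2 than in the wild type Col-0, while the chemical defence inducer BTH left their group means nearly in place in the wild type and in each single mutant. A gene was included if its mean log2 level in mkk1/mkk2 was at least 1.5 above that in Col-0 both without treatment and after BTH, and if its mean differed by no more than 0.5 between BTH-treated and untreated plants in Col-0, in mkk1 and in mkk2. Only probe sets annotated with 1 gene were considered, 13513 of the 22746 non-control probe sets on the array, and 81 of them met the rule. WES1 and PDF1.4 also met the numbers and were left out by name, as were OSM34, GH3.3, SAG29, PYK10 and the UGT, CYP, WRKY, NAC and ATG8 families wherever they occurred. Of the 81 genes, 16 carry a gene name in the annotation and 65 only a locus code.

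MKK1 and MKK2 are mitogen-activated protein kinase kinases that act redundantly between the upstream kinase MEKK1 and the downstream kinase MPK4. Plants without this cascade are small and hold defence programmes active without a pathogen. BTH (benzothiadiazole) mimics salicylic acid and switches on systemic acquired resistance in the wild type.

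Whole soil-grown plants were sampled in triplicate, 24 arrays in 8 groups of 3. The genotypes were wild type Col-0, mkk1 (SALK_027645), mkk2 (Garlic_511-HO1) and mkk1/mkk2, for which the labels name no alleles. Each genotype was sampled untreated and 24 h after BTH. Untreated Col-0 is titled as time 0, the untreated mutants carry no time, and no group is named as mock-sprayed, so 24 h of elapsed time and BTH cannot be told apart. A spray of 100 µM BTH is noted for the mkk2 and mkk1/mkk2 samples. The Col-0 and mkk1 samples named as BTH-treated carry a control-treatment note instead, and their treatment is taken from their titles and source names. The description field of all 24 samples, mutants included, reads as untreated Col-0, so genotype and treatment throughout rest on titles and source names. Plant age is not stated, growth was in a greenhouse or in short-day chambers without saying which plants were where, and it is not stated whether replicates A, B and C were separate sets of plants, so the spread between arrays may be technical. No probe set named for MKK1 or MKK2 was among those used, and the transcripts of the mutated genes were not analysed here.

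Levels are log2 values of the RMA method, in which 1 unit is a 2-fold change. They ran from 2.27 to 14.14, with array medians between 5.57 and 5.78. The bacterial spike-in difference bioC minus bioD lay between -1.95 and -1.53 on the 12 arrays of Col-0 plus mkk1/mkk2, and between -3.48 and -3.06 on the 12 arrays of mkk1 plus mkk2, so that the single mutants formed an array set apart, and genotype and array set cannot be told apart wherever a single mutant is compared with Col-0. Col-0 and mkk1/mkk2 lay in the same set by this difference alone. The labels name no batch, so it is not known whether their arrays were run together. Replicate A of untreated mkk1/mkk2 stood apart most, with a mean correlation of 0.933 to its own group against 0.961 and 0.962 for B and C. Replicate A of BTH-treated Col-0 and replicate B of untreated mkk2 were the lowest of their groups at 0.975 and 0.976. In RNA from whole plants, a change in the share of a cell type and a change in RNA per cell cannot be told apart.

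The genes were chosen by their mkk1/mkk2 minus Col-0 differences and by small BTH changes in Col-0, mkk1 and mkk2, so these values are given as a description without a test. Without treatment the differences ran from 1.53 to 5.68 with a median of 2.21, a 4.6-fold difference, and 45 genes differed by at least 4-fold. After BTH they ran from 1.5 to 6.03 with a median of 2.32, a 5.0-fold difference, and 56 genes differed by at least 4-fold. The median level of the 81 genes was 4.28 in Col-0 in either condition, 4.40 and 4.38 in mkk1, 4.39 and 4.49 in mkk2, and 6.86 and 7.08 in mkk1/mkk2 (untreated and after BTH). Low levels in the wild type were common: 53 of the 81 genes (65.4%) were under 5 in untreated Col-0, against 40.9% of all probe sets.

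All 6 mkk1/mkk2 arrays lay above all 18 other arrays for 74 of the 81 genes, where 3.95% of all probe sets show such a separation. The rule compared mkk1/mkk2 with Col-0, so nothing is read from that count. The exceptions were AT2G37130, AT2G30600, BGLU46, AT4G39230, AT1G21670, ATL8 and AT1G02660. Against Col-0 alone, the 3 untreated mkk1/mkk2 arrays lay above the 3 untreated Col-0 arrays for 79 genes (17.2% of all probe sets), with BGLU46 and AT1G02660 overlapping, and the BTH-treated arrays separated for all 81 (18% of all probe sets).

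**Figure D1:**
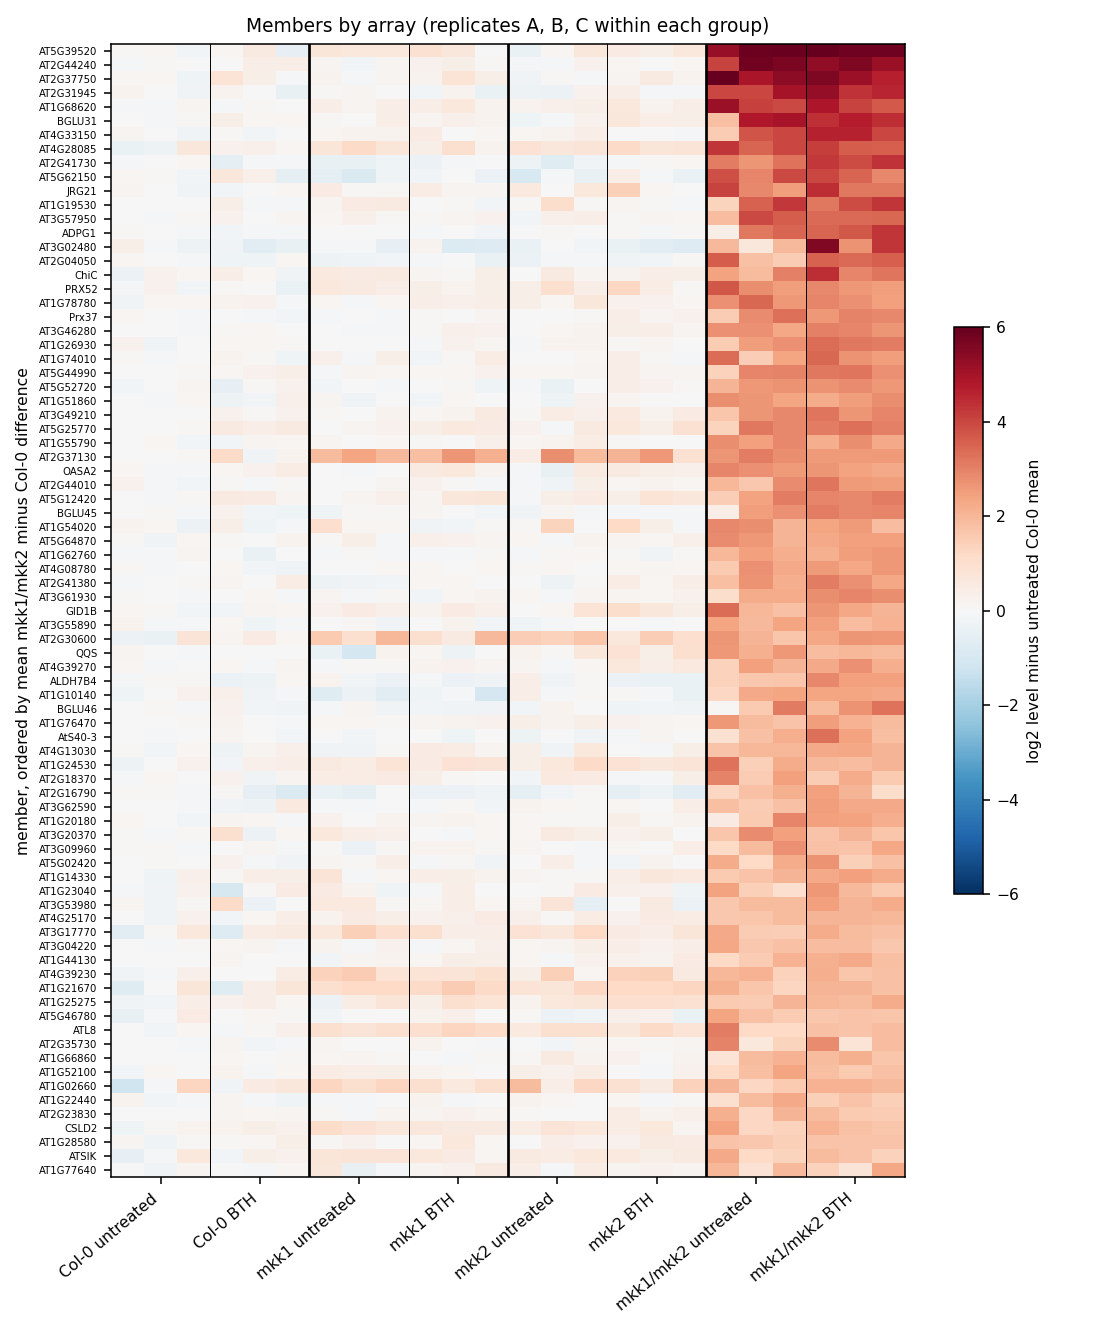
Heat map of the 81 genes (rows, ordered by the mean of the untreated and BTH differences between mkk1/mkk2 and Col-0) on the 24 arrays (columns, replicates A, B and C within each of 8 groups), coloured by the log2 level minus the mean of untreated Col-0. The 6 mkk1/mkk2 columns are mostly red. Some genes have a pale cell on untreated replicate A, and AT3G02480 and AT2G35730 have one on untreated replicate B instead. The most visible single-mutant signal is the row of AT2G37130.

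The gene with the largest difference was AT5G39520, which has no gene name in the annotation. It read 5.06, 5.13 and 4.84 on the untreated Col-0 arrays and 10.23, 10.91 and 10.92 on the untreated mkk1/mkk2 arrays, a 51.2-fold difference of means. In BTH-treated plants the levels were 5.14, 5.56 and 4.53 in Col-0 and 11.64, 10.84 and 10.85 in mkk1/mkk2, a 65.5-fold difference. The 12 single-mutant arrays lay between 4.62 and 5.92, so even the lowest mkk1/mkk2 array was more than 4 log2 units above the highest array of any other genotype.

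AT2G44240 and AT2G37750, also without gene names, followed. AT2G44240 read 3.95, 4.09 and 4.01 in untreated Col-0 and 8.06, 9.83 and 9.65 in untreated mkk1/mkk2. After BTH it read 4.0, 4.42 and 4.41 in Col-0 and 9.34, 9.64 and 9.21 in mkk1/mkk2, and its single-mutant arrays stayed between 3.87 and 4.35. AT2G37750 read 5.31, 5.29 and 4.94 in untreated Col-0 and 11.14, 10.10 and 10.53 in untreated mkk1/mkk2. Neither gene had a single-mutant array within 3 log2 units of the mkk1/mkk2 arrays.

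Other genes known only by locus code with large differences were AT2G31945, at 5.24 ± 0.21 in untreated Col-0 and 9.58 ± 0.55 in untreated mkk1/mkk2 (mean ± SD, n = 3 here and below), and AT1G68620, at 4.31 ± 0.13 and 8.72 ± 0.68. AT4G28085 stood at 4.20 ± 0.60 and 8.13 ± 0.41, and AT5G62150 at 5.46 ± 0.17 and 9.04 ± 0.58. AT1G19530 and AT3G57950 had means of 3.40 and 3.70 in untreated Col-0 and spread widely in untreated mkk1/mkk2, at 6.43 ± 1.5 and 6.86 ± 1.15. After BTH these last 2 were at 7.19 ± 0.57 and 7.10 ± 0.03.

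The wild-type levels behind these differences spanned the scale, from a mean of 2.83 for ADPG1 to 10.07 for AT1G25275 in untreated Col-0, the latter a gene singled out after its values were seen. AT1G25275 stood at 11.80 in untreated mkk1/mkk2 and 12.11 after BTH, differences of 1.73 and 1.80 from Col-0. The largest differences did not belong to the genes with the highest wild-type levels: the 15 genes with the largest differences all had untreated Col-0 means between 2.83 and 6.42.

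The named genes are taken by role, an order made with the members known and not tested as a theme. PRX52 and Prx37 are class III peroxidases, secreted enzymes that couple phenolics such as lignin precursors in the wall. PRX52 read 3.91, 4.29 and 3.83 in untreated Col-0 and 7.75, 6.78 and 6.52 in untreated mkk1/mkk2, an 8.0-fold difference. After BTH it read 4.1, 3.98 and 3.63 against 6.90, 6.59 and 6.51. The highest of the 12 single-mutant arrays, BTH-treated mkk2 replicate A, was 5.26, between the Col-0 and the mkk1/mkk2 values. Prx37 read 4.74, 4.58 and 4.52 in untreated Col-0 and 6.12, 7.44 and 7.93 in untreated mkk1/mkk2, with single mutants between 4.49 and 5.02. With BTH the Prx37 levels were 4.57, 4.49 and 4.44 against 7.20, 7.57 and 7.47.

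BGLU45 and BGLU46 are beta-glucosidases that release monolignols, the building blocks of lignin, from their glucosides. BGLU45 was low on every array outside mkk1/mkk2, with 3.11, 3.13 and 2.97 in untreated Col-0 and 2.79 to 3.23 in the single mutants. It read 3.45, 5.6 and 5.8 in untreated mkk1/mkk2 and 6.16, 5.93 and 5.98 after BTH. BGLU46 read 2.94, 3.04 and 2.91 in untreated Col-0, 3.03, 4.53 and 6.09 in untreated mkk1/mkk2, and 4.86, 5.64 and 6.21 in mkk1/mkk2 after BTH. Replicate A of untreated mkk1/mkk2 thus lay inside the Col-0 range for BGLU46, and B and C above it. BGLU31, another member of this glucosidase family, read 3.02, 2.97 and 3.12 in untreated Col-0, 4.85, 7.84 and 7.99 in untreated mkk1/mkk2, and 7.44, 7.75 and 7.47 in mkk1/mkk2 after BTH. Its difference from Col-0 was 14.5-fold without treatment and 20.0-fold after BTH.

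ADPG1 is a polygalacturonase, a pectin-cutting enzyme known from organ abscission and pod dehiscence. On the 18 arrays of Col-0 and the single mutants it never exceeded 2.92. In untreated mkk1/mkk2 it read 3.19, 6.0 and 6.3, and after BTH 6.32, 6.57 and 7.13, so that replicate A without treatment was close to the wild type and the other 5 arrays were not. CSLD2, a cellulose synthase-like protein, was less far apart: 5.33, 5.68 and 5.83 in untreated Col-0, 8.01, 6.87 and 6.99 in untreated mkk1/mkk2, and 7.69, 7.36 and 7.29 in mkk1/mkk2 after BTH. ChiC, a class V chitinase of the kind that can cut fungal walls, read 3.24, 3.85 and 3.75 in untreated Col-0 and 6.04, 5.52 and 6.63 in untreated mkk1/mkk2. After BTH it read 4.0, 3.75 and 3.4 against 8.02, 6.55 and 6.84, a 10.7-fold difference.

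The hormone and signalling genes included JRG21, a jasmonate-regulated 2-oxoglutarate-dependent dioxygenase that oxidises jasmonate. It read 3.93, 3.76 and 3.55 in untreated Col-0, 7.80, 6.64 and 6.27 in untreated mkk1/mkk2, and 8.17, 6.91 and 6.91 in mkk1/mkk2 after BTH. A single BTH-treated mkk2 array, replicate A, reached 5.18, the other 11 single-mutant arrays being lower. GID1B, a gibberellin receptor, read 5.06, 5.0 and 4.77 in untreated Col-0, 8.27, 6.91 and 6.70 in untreated mkk1/mkk2, and 7.59, 7.24 and 6.97 after BTH. Its mkk1/mkk2 arrays did not overlap with any other array, the highest of which was 5.99.

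ATL8 belongs to a family of RING-type ubiquitin ligases. Its levels were 5.72, 5.54 and 5.80 in untreated Col-0, 8.74, 6.88 and 6.88 in untreated mkk1/mkk2, and 7.44, 7.41 and 7.55 in mkk1/mkk2 after BTH. The single mutants lay between 6.28 and 6.99, above every Col-0 array and overlapping the lower mkk1/mkk2 arrays. ATSIK, a protein kinase named for osmotic stress, read 6.37, 6.75 and 7.49 in untreated Col-0 and 9.16, 8.05 and 8.20 in untreated mkk1/mkk2, with single mutants from 6.99 to 7.66. Its BTH-treated arrays read 6.71, 7.23 and 7.12 in Col-0 and 8.75, 8.57 and 8.27 in mkk1/mkk2, so the 6 mkk1/mkk2 arrays lay above all others by a small margin.

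Among the metabolic genes, AT4G33150, which has only a locus code in the annotation, encodes LKR/SDH, the bifunctional enzyme that begins lysine breakdown. It read 4.1, 3.99 and 3.76 in untreated Col-0, 5.48, 7.70 and 7.97 in untreated mkk1/mkk2, and 8.58, 8.59 and 7.94 after BTH. ALDH7B4, a stress-related aldehyde dehydrogenase, had one of the higher wild-type levels: 8.24, 8.44 and 8.42 in untreated Col-0 against 9.93 ± 0.17 in untreated mkk1/mkk2, and 8.04, 8.08 and 8.5 against 11.24, 10.82 and 10.84 after BTH. OASA2, annotated as an isoform of O-acetylserine (thiol) lyase, the enzyme family of cysteine synthesis, read 5.39, 5.2 and 5.2 in untreated Col-0 and 8.21, 7.98 and 7.81 in untreated mkk1/mkk2. The BTH-treated arrays read 5.36, 5.53 and 5.69 against 7.9, 7.69 and 7.55. Unlike most of the named genes, OASA2 had a small spread in untreated mkk1/mkk2 (SD 0.20).

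QQS is an orphan gene of Arabidopsis that affects starch content. It read 7.73, 7.53 and 7.44 in untreated Col-0, 10.19, 9.70 and 10.16 in untreated mkk1/mkk2, and 9.41, 9.54 and 9.45 in mkk1/mkk2 after BTH. AtS40-3, of a family linked to leaf senescence, read 3.32, 3.22 and 3.32 in untreated Col-0, 4.19, 5.06 and 5.46 in untreated mkk1/mkk2, and 6.58, 5.71 and 5.10 after BTH. For either gene the 6 mkk1/mkk2 arrays lay above the rest.

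**Figure D2:**
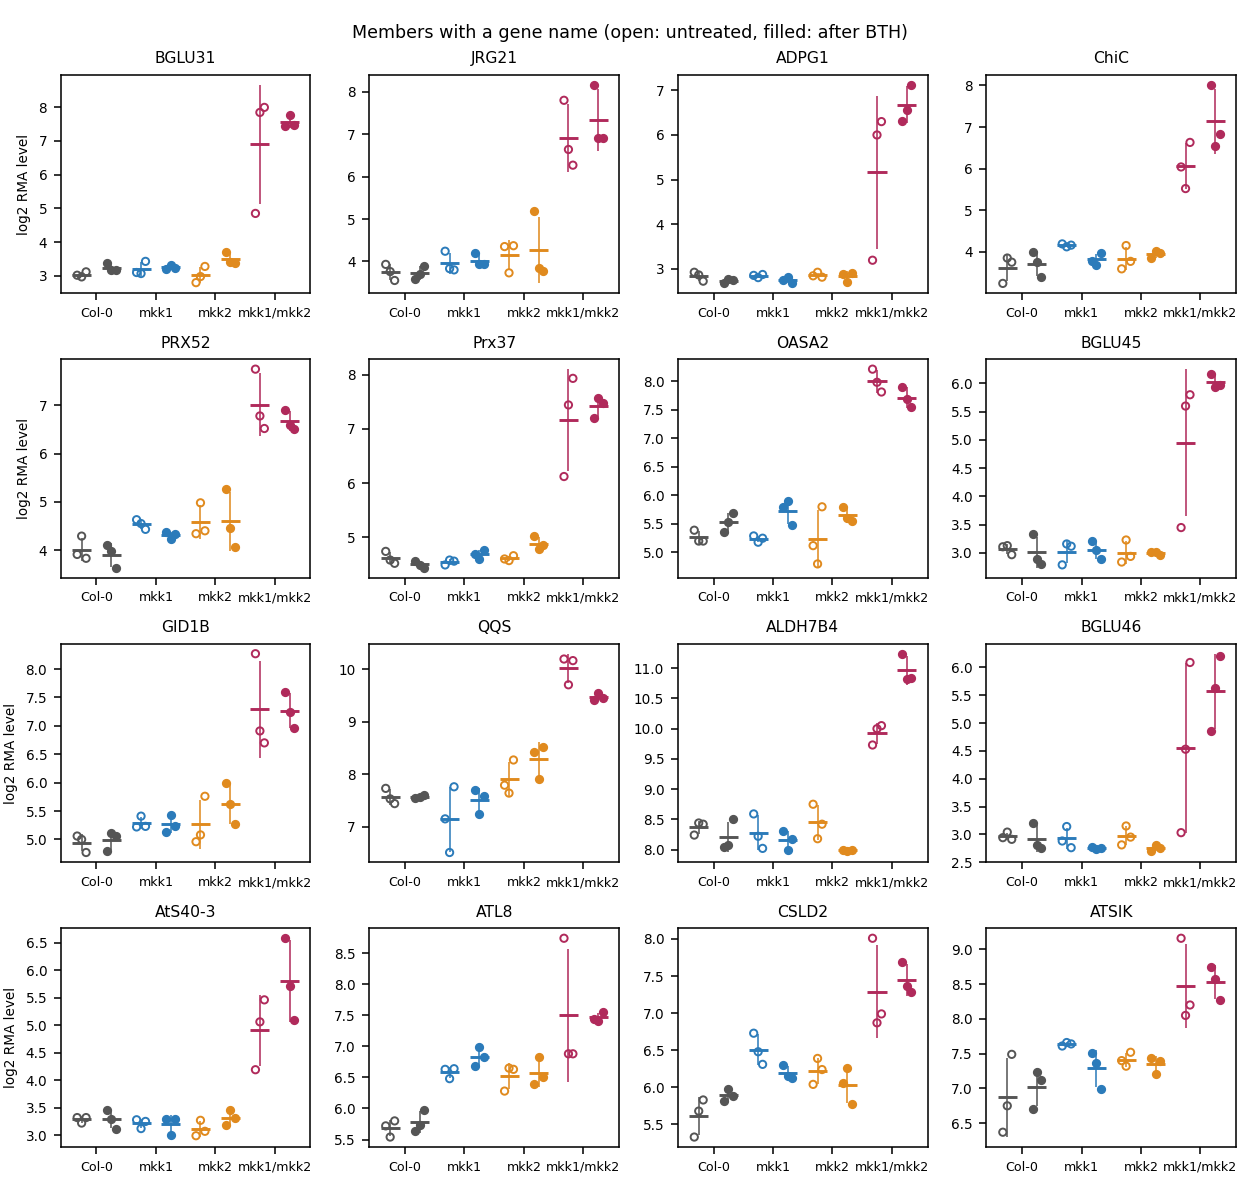
Log2 RMA levels of the 16 genes with a gene name, 1 panel each with its own vertical axis, by genotype (open circles untreated, filled circles 24 h after BTH, each circle 1 array, horizontal bar the mean, vertical line ± 1 SD, n = 3). The mkk1/mkk2 points lie above the others except in the panels of BGLU46 and ATL8, where some overlap. For BGLU31, ADPG1, BGLU45, BGLU46 and Prx37 1 open mkk1/mkk2 circle falls well below the other open circles of that genotype.

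The spread within untreated mkk1/mkk2 was the widest of the 8 groups for these genes, with a median SD of 0.58 against 0.14 to 0.24 in the other 7 groups. Over all probe sets the median SD in that group was 0.31, against 0.13 to 0.20 in the other 7 groups. It was thus the widest group over the whole array as well. Replicate A was the array most often apart: it lay at least 1 below both B and C for 16 of the 81 genes (9.85% of all probe sets) and at least 1 above both for 9 (4.15% of all probe sets). For replicate B the corresponding counts were 3 below and 0 above (0.132% and 0.484% of all probe sets), and for replicate C 0 below and 2 above (0.207% and 0.132%).

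The genes low on replicate A included BGLU31, ADPG1, BGLU45, BGLU46, Prx37 and AT4G33150. Those high on it included CSLD2, JRG21, GID1B and ATL8. After BTH, replicate A was at least 1 below both other arrays for 0 of the 16 and at least 1 above for 1 of the 9. On untreated replicate A the 3' minus 5' signal of the GAPDH control was 1.27, against 0.86 and 0.29 for B and C and 0.70 to 1.18 in untreated Col-0. After BTH it ran from 0.60 to 0.73 in Col-0 and from 0.14 to 0.52 in mkk1/mkk2, without overlap. Untreated mkk1 and mkk2 ran from 0.26 to 0.31 and from 0.30 to 0.61. After BTH they ran from -0.04 to 0.23 and from -0.07 to 0.19. All single-mutant arrays were thus below the Col-0 arrays of the same condition. The part of RNA quality in the levels was not tested. Without replicate A the untreated differences from Col-0 ran from 0.98 to 5.90 with a median of 2.27, and 71 of the 81 genes still had a difference of at least 1.5.

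**Figure D3:**
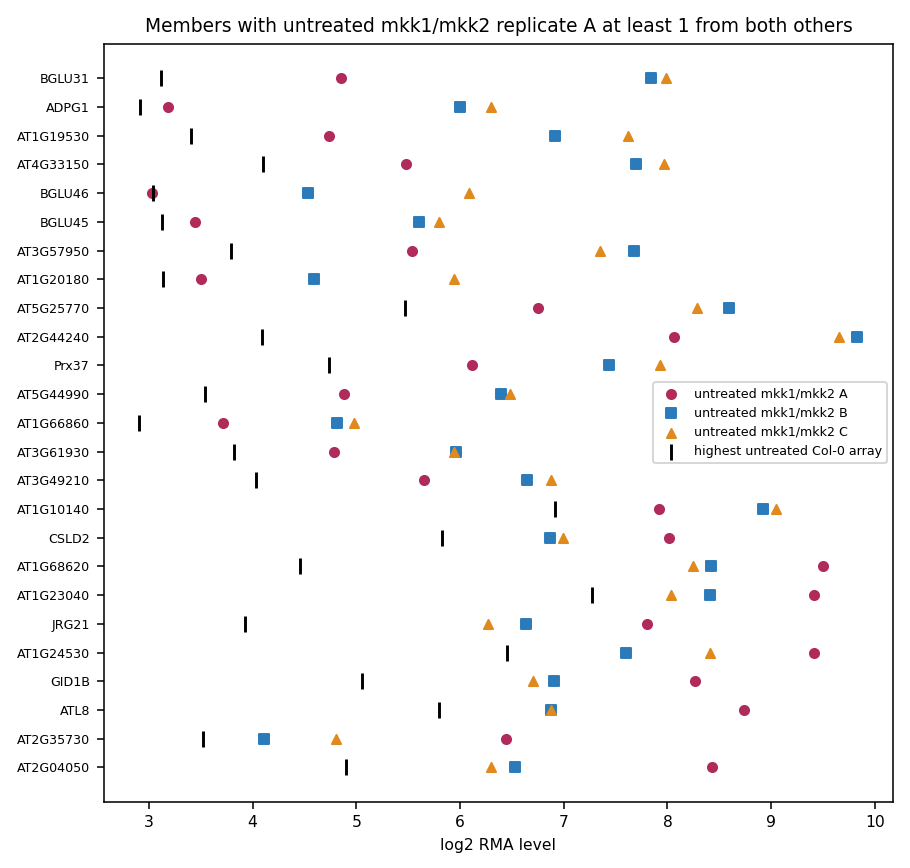
Log2 RMA levels of the 25 genes for which replicate A of untreated mkk1/mkk2 (circles) lay at least 1 from both replicate B (squares) and replicate C (triangles), with the highest untreated Col-0 array as a black tick. In the upper 16 rows replicate A is the lowest of the 3, reaching the Col-0 tick for BGLU46, and in the lower 9 rows it is the highest.

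The BTH change within mkk1/mkk2 had no limit of its own in the rule, but it is fixed by contrasts the rule did use: it equals the mkk1/mkk2 minus Col-0 difference after BTH, minus that difference without treatment, plus the BTH change in Col-0. It is therefore given as a description, without a test. The changes were positive for 55 genes and negative for 26 and ran from -0.55 to 2.66, with a median of 0.27 against -0.04 over all probe sets. In the limma fit, which calls a gene at a Benjamini-Hochberg adjusted p under 0.05 over all 22746 probe sets, 4 of the 81 genes were called higher and 0 lower, where 0.264% of all probe sets were called higher and 0.0703% lower, and nothing is read from that count. The count became 13 without untreated mkk1/mkk2 replicate C, 1 without the BTH-treated replicate A, 2 without the BTH-treated replicate C, and 0 in a fit of the 6 mkk1/mkk2 arrays alone. The shares of all probe sets called in these fits are not given here.

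AT3G02480, without a gene name, had the largest change. It read 6.24, 4.94 and 6.23 in untreated mkk1/mkk2 and 9.85, 6.99 and 8.55 after BTH, a log2 change of 2.66 ± 0.48 (SE). The BTH-treated arrays lay above the untreated ones and were widely spread, and without the BTH-treated replicate A the change was 1.97. In untreated and BTH-treated Col-0 its means were 4.28 and 3.83, so its excess over Col-0 was 2.9-fold without treatment and 24.8-fold after BTH.

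AT2G41730 read 9.47, 9.08 and 9.69 in untreated mkk1/mkk2 and 10.68, 10.35 and 10.77 after BTH, a change of 1.19 ± 0.17, and the groups did not overlap. Its probe set is the only one of the 81 of the class that may also bind related transcripts. ALDH7B4 differed by 1.04 ± 0.17, with 9.73 to 10.05 on the untreated arrays and 11.24, 10.82 and 10.84 after BTH. AT3G61930 differed by 1.01 ± 0.21, with 4.79, 5.96 and 5.94 against 6.54, 6.67 and 6.52. It is also among the genes low on untreated replicate A. These 3 genes and AT3G02480 were the 4 called in the fit, and the calls are no test of them. All 4 calls were lost in the fit of the 6 mkk1/mkk2 arrays alone. Over the alternative fits the change ran from 0.63 to 1.21 for AT3G61930 and from 1.97 to 3.40 for AT3G02480. It ran from 0.89 to 1.11 for ALDH7B4 and from 1.02 to 1.32 for AT2G41730.

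Other genes had changes of a like size with larger errors than AT2G41730, ALDH7B4 and AT3G61930. ADPG1 differed by 1.51 ± 0.47, AT4G33150 by 1.32 ± 0.39, AT2G04050 by 1.19 ± 0.33 and ChiC by 1.07 ± 0.30. BGLU45 and BGLU46 differed by 1.07 ± 0.37 and 1.02 ± 0.46. For ADPG1, AT4G33150, BGLU45 and BGLU46, replicate A of the untreated arrays was the low array described above. The lowest values were those of QQS, at -0.55 ± 0.24, and AT2G18370, at -0.55 ± 0.27.

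**Figure D4:**
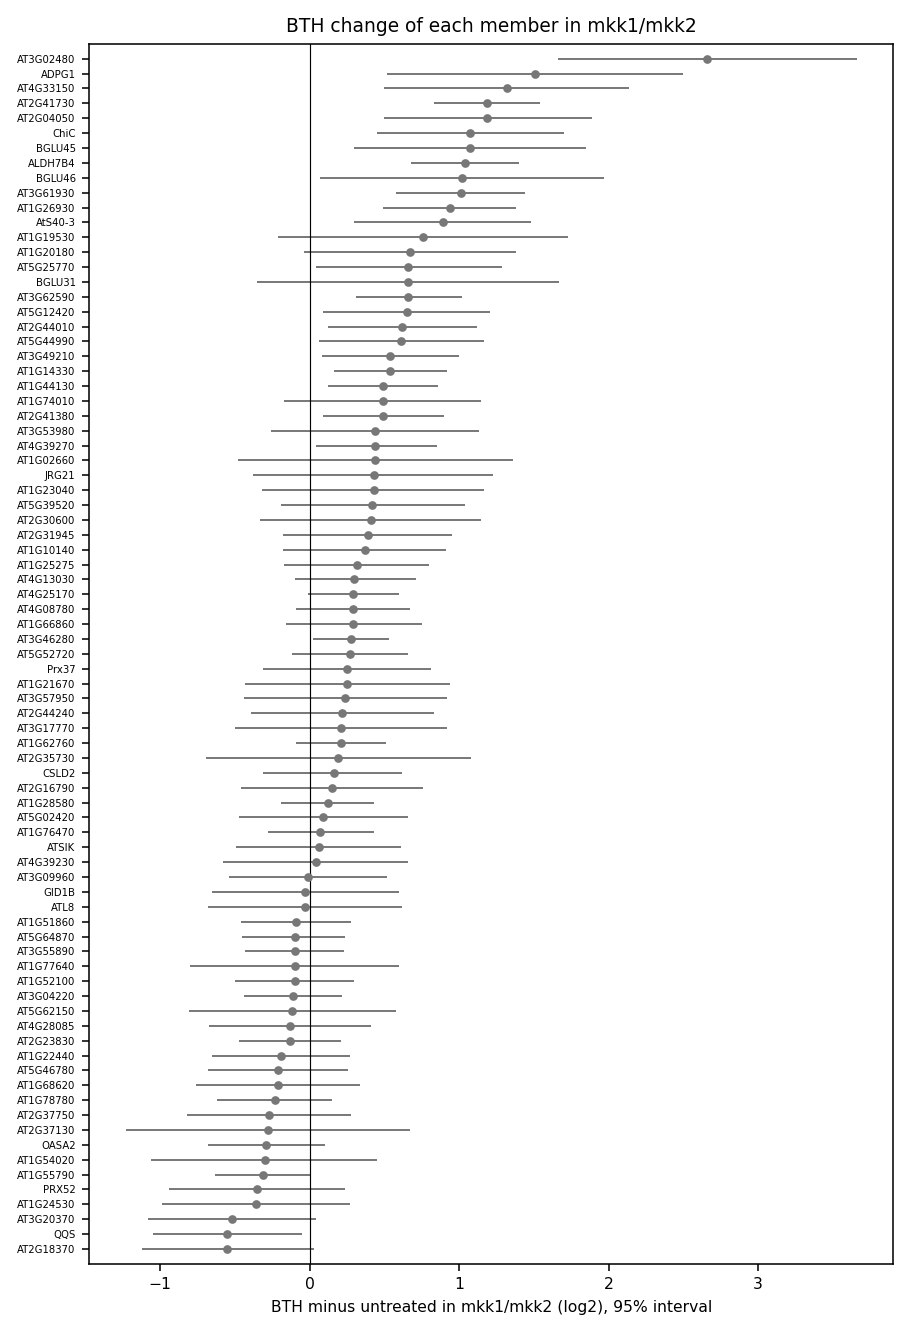
Change in log2 level between BTH-treated and untreated mkk1/mkk2 plants for the 81 genes (points, 3 arrays against 3, with the 95% interval of the limma fit as a line), ordered by size. Most intervals include 0, and AT3G02480 is the farthest to the right at 2.66.

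The single mutants were set against Col-0 next. These comparisons are not independent of the rule, which used the same Col-0 arrays, and the single mutants lie in another array set than Col-0, so the values do not show what loss of either kinase alone did. In untreated mkk1, 8 of the 81 genes (9.9%) were called higher than in untreated Col-0 and 0 lower, where 9.46% of all probe sets were called higher and 7.83% lower, so that the share called higher was near the background and is not a result about these genes. The median difference was 0.10, against 0.00 over all probe sets. In untreated mkk2, 2 genes were called higher and 0 lower, again no larger a share than the 3.5% called higher among all probe sets (4.13% were called lower). At an unadjusted p under 0.05 there were 12 genes. The share of all probe sets at that unadjusted threshold is not given here, so nothing is read from that count.

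AT2G37130 had the largest single-mutant difference. It read 4.48, 4.47 and 4.57 in untreated Col-0, 6.39, 6.89 and 6.44 in untreated mkk1, 4.95, 7.29 and 6.42 in untreated mkk2, and 7.16, 7.56 and 7.31 in untreated mkk1/mkk2. The mkk1 arrays lay apart from Col-0 by 2.07 ± 0.45 (SE, adjusted p = 0.0043), and mkk2, more scattered, by 1.71 ± 0.45 (adjusted p = 0.026). The mkk2 call was lost without untreated mkk2 replicate B (1.18) and in 4 other alternative fits. After BTH the differences were 1.80 ± 0.45 in mkk1 (adjusted p = 0.068) and 1.46 ± 0.45 in mkk2 (adjusted p = 0.1), neither of which passed.

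AT2G30600 read 6.84, 6.83 and 7.97 in untreated Col-0, 8.76, 8.15 and 9.21 in mkk1, 8.68, 8.58 and 8.88 in mkk2, and 9.84, 9.27 and 8.87 in mkk1/mkk2. It was higher by 1.49 ± 0.35 in mkk1 (adjusted p = 0.0068) and by 1.5 ± 0.35 in mkk2 (adjusted p = 0.015). All single-mutant arrays lay above all Col-0 arrays in the untreated state, and they overlapped those of mkk1/mkk2. The mkk2 call was lost without untreated Col-0 replicate A or B (1.31 in either case).

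The other 6 genes called in untreated mkk1 were AT4G39230 (1.24 ± 0.30, adjusted p = 0.0068), AT1G21670 (1.11 ± 0.33, adjusted p = 0.024), AT3G17770 (1.02 ± 0.34, adjusted p = 0.042), CSLD2 (0.89 ± 0.22, adjusted p = 0.0095), AT4G28085 (0.87 ± 0.26, adjusted p = 0.026) and ATSIK (0.77 ± 0.26, adjusted p = 0.049). AT4G39230 read 4.66, 4.8 and 5.17 in untreated Col-0, 6.28, 6.39 and 5.69 in mkk1 and 6.89, 6.98 and 6.26 in mkk1/mkk2, the last 2 groups overlapping. CSLD2 read 6.73, 6.48 and 6.31 in untreated mkk1, between Col-0 and mkk1/mkk2. ATSIK lay at 7.61, 7.66 and 7.64 in untreated mkk1, tightly grouped, while its Col-0 arrays ranged from 6.37 to 7.49, and its call was lost in 23 of 32 alternative fits. The call of AT3G17770 was lost in 10, that of AT4G28085 in 5, that of AT1G21670 in 4, that of CSLD2 in 2 and that of AT4G39230 in 0. AT1G21670 and AT3G17770 also had wide Col-0 values, with replicate A the lowest in either condition. Single arrays moved these counts: the 8 calls in untreated mkk1 became 3 without untreated Col-0 replicate A, 4 without its replicate B, and 5 and 4 without untreated mkk1 replicates A and B. The 2 calls in untreated mkk2 became 0 without untreated Col-0 replicate A or B, 7 without its replicate C and 1 without untreated mkk2 replicate B or C. With replicate A of untreated mkk1/mkk2 left out, the untreated mkk2 count became 6. The shares of all probe sets called in these fits are not given here, so nothing is read from the altered counts.

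ATL8 and AT1G02660 had estimates of the same size without passing in untreated mkk1. ATL8 differed by 0.90 ± 0.31 (adjusted p = 0.053) although all 3 mkk1 arrays lay above all Col-0 arrays, and AT1G02660 by 1.19 ± 0.44 (adjusted p = 0.072), its untreated Col-0 arrays being spread over 4.53, 5.58 and 7.01. After BTH, limma called 0 of the 81 genes in either single mutant against Col-0. Of all probe sets, 0.62% were called in either direction in mkk1 and 1.83% in mkk2. At an unadjusted p under 0.05 there were 5 of the 81 genes in mkk1 and 11 in mkk2. The share of all probe sets at that unadjusted threshold is not given here, so nothing is read from these 2 counts.

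**Figure D5:**
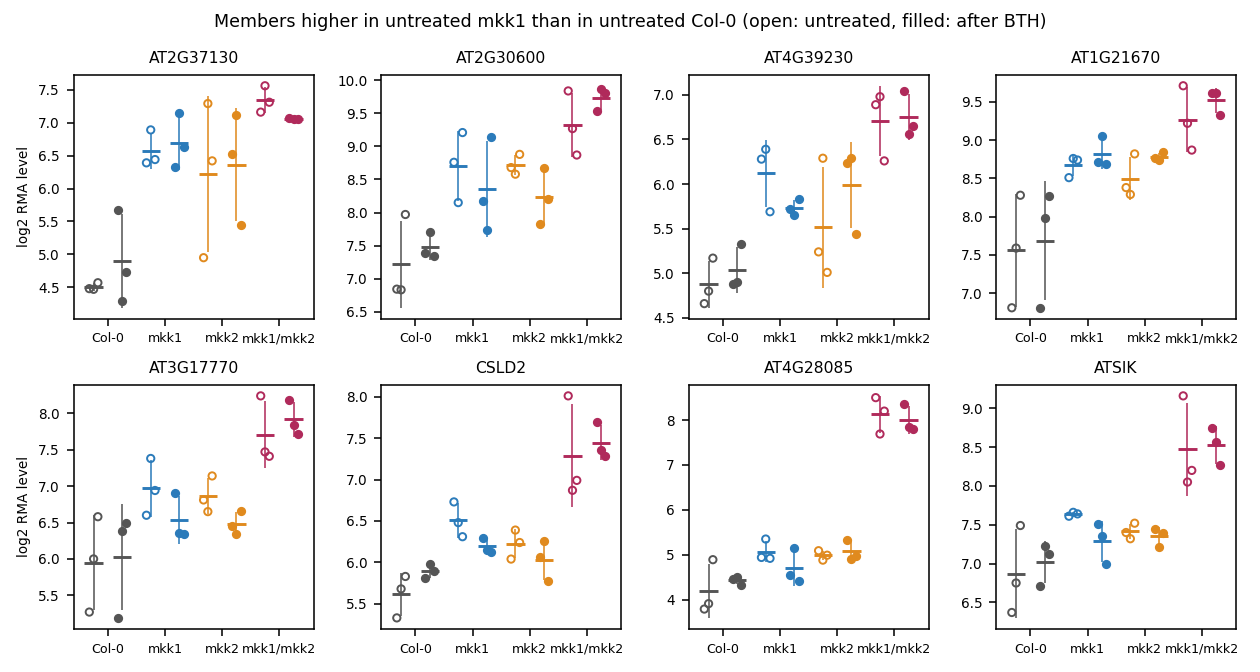
Log2 RMA levels by genotype of the 8 genes called higher in untreated mkk1 than in untreated Col-0 (open circles untreated, filled circles after BTH, each circle 1 array, horizontal bar the mean, vertical line ± 1 SD, n = 3, own vertical axis per panel). The untreated mkk1 means lie between those of Col-0 and mkk1/mkk2, relatively closest to mkk1/mkk2 for AT2G37130 and to Col-0 for AT4G28085.

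For most of the 81 genes the single mutants stayed near Col-0. The difference of the mkk1 mean from Col-0 was a median of 4.2% of the mkk1/mkk2 difference without treatment and 3.9% after BTH, and that of mkk2 6.0% and 6.3%. The share, a ratio of differences on the log2 scale given without a test because the mkk1/mkk2 difference chose the genes, exceeded 50% for 7 genes in untreated mkk1 and 5 in untreated mkk2. AT5G39520 had shares of 11.8% in untreated mkk1 and 2.4% in untreated mkk2. ADPG1 had means of 2.84 and 2.86 in the untreated single mutants against 2.83 in Col-0.

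By the spike-in difference the mkk1 and mkk2 arrays belong to the same array set. Their comparison uses neither Col-0 nor mkk1/mkk2 arrays, so it is free of the rule's contrasts between genotypes. The rule kept the BTH change small in either mutant, so the values in the 2 conditions are tied to each other. Limma called 0 of the 81 genes either way, where 0.0044% of all probe sets were called without treatment and 0.0308% after BTH. At an unadjusted p under 0.05 there were 2 genes without treatment and 1 after BTH. No share of all probe sets at that unadjusted threshold is given here, so nothing is read from these 2 counts. The estimates ran from -0.61 to 0.76 without treatment and from -0.33 to 0.77 after BTH, and the 95% intervals reached a median of 0.56 to either side. QQS had the largest estimate in either condition. It read 7.15, 6.51 and 7.76 in untreated mkk1 and 7.79, 7.64 and 8.27 in untreated mkk2, a difference of 0.76 (95% interval 0.26 to 1.26, adjusted p = 1). After BTH it read 7.70, 7.25 and 7.58 against 8.43, 7.90 and 8.52, a difference of 0.77 (0.27 to 1.28, adjusted p = 1). The second gene without treatment was AT1G10140, at 0.69 (0.14 to 1.23, adjusted p = 1).

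The 81 genes lay on all 5 chromosomes, with 28, 13, 18, 10 and 12 from chromosome 1 to 5. By the gene order of the TAIR10.1 annotation, 12 of them formed 6 pairs within 10 genes of each other. BGLU45 and BGLU46 are direct neighbours on chromosome 1, and Prx37 and AT4G08780 on chromosome 4. Pearson's r over the 24 arrays was 0.98 for Prx37 and AT4G08780 and 0.96 for BGLU45 and BGLU46. These values describe arrays that all carry the mkk1/mkk2 difference the rule asked for, and near-identical neighbours can share probe signal. AT4G08780 read 4.35, 4.15 and 4.28 in untreated Col-0 and 5.83, 6.99 and 6.53 in untreated mkk1/mkk2, with replicate A lowest as for Prx37. The other pairs were AT3G55890 with JRG21 (r of 0.95, 9 genes apart), AT1G54020 with ALDH7B4 (0.83, 9 apart), ATL8 with AT1G76470 (0.79, 7 apart) and AT4G39230 with AT4G39270 (0.71, 5 apart).

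The thresholds passed through a continuous range. Just inside the untreated threshold were AT3G02480 at 1.53, ALDH7B4 at 1.56 and BGLU46 at 1.59, and just outside it AT2G39410 at 1.48, AT5G10650 at 1.41 and DELTA-OAT, ornithine aminotransferase, at 1.39. After BTH, AT1G77640 at 1.5, AT2G23830 at 1.51 and ATSIK at 1.51 were inside, and AT2G17740 at 1.497, AT5G52390 at 1.467 and AT2G28570 at 1.453 outside. For the largest BTH change among Col-0, mkk1 and mkk2, AT1G54020 at 0.493, OASA2 at 0.487 and AT4G13030 at 0.487 were inside, and UPB1, AT3G28580 and ARL at 0.503 outside.

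Few of the genes of related pathways could be matched by name to a single-gene probe set. Matched, and called measured here, were 15 of 124 genes in 11 lists. Of the 22746 non-control probe sets 8730 carry no symbol and 503 carry several, so an unmatched gene may still be on the array. Of the salicylic acid list, 2 of 18 were measured. SAG101, a lipase-like partner of EDS1, stood at 4.83 ± 0.34 in untreated Col-0 and 6.39 ± 0.69 in untreated mkk1/mkk2, and GRX480, a salicylic-acid-induced glutaredoxin, at 5.76 ± 0.08 and 10.21 ± 0.19. Both were called higher in untreated mkk1/mkk2, where 16.1% of all probe sets were called higher and 17.2% lower. GRX480 differs from the 81 genes in its BTH response, with 9.39 ± 0.41 in BTH-treated Col-0, a contrast that the rule excluded. Neither was called for BTH within mkk1/mkk2. PDF1.2, matched from the jasmonate and ethylene list, was called higher in mkk1/mkk2 without treatment only (6.87 ± 0.57 against 5.76 ± 0.63 in Col-0). AT1G79090, matched from the MPK4 cascade list, was called higher in mkk1/mkk2 only after BTH (7.49 ± 0.13 against 6.76 ± 0.31). STZ, GSTU25 and AT2G21640 were matched from the oxidative stress list. Of these 3, 0 were called in untreated mkk1/mkk2 and 1 was called higher after BTH.

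Markers of other organs were set beside these values. Of the root list 3 of 10 were measured: the root hair expansins EXPA7 and EXPA18 lay between 3.96 and 4.58 in every group mean, and PYK10, a beta-glucosidase abundant in roots and seedlings, stood at 4.64 ± 0.40 in untreated Col-0, 7.94 ± 0.57 in untreated mkk1, 5.93 ± 2.25 in untreated mkk2 and 8.99 ± 1.07 in untreated mkk1/mkk2. Of the leaf photosynthesis list 4 of 12 were measured. Their mean per array ran from 12.20 to 12.76 in untreated Col-0 and from 11.50 to 12.26 in untreated mkk1/mkk2. SBPASE and PRK were called lower there. RCA (13.07 ± 0.28 in untreated Col-0, 12.90 ± 0.33 in untreated mkk1/mkk2) and LHCB4.1 (13.20 ± 0.17 and 13.28 ± 0.21) were not called. After BTH, 1 of the 4 was called lower in mkk1/mkk2 than in Col-0. Of the senescing leaf list 1 of 8 was measured. SAG29, a sugar transporter gene of senescing leaves, stood at 7.36 ± 0.19 in untreated Col-0 and 6.99 ± 0.88 in untreated mkk1/mkk2, and at 5.41 ± 0.54 in BTH-treated Col-0 and 7.92 ± 0.64 in BTH-treated mkk1/mkk2, where it was called higher by 2.52 ± 0.37 (SE, adjusted p = 4.8e-05). No gene of the flower, seed and dividing-cell lists was matched by name, so these lists could not be examined here. The part of tissue composition or senescence in the 81 genes was not tested.

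Families named by symbol place 2 of the 81 genes among their relatives. CSLD2 is 1 of 31 wall enzymes (XTH, expansin, pectin methylesterase and cellulose synthase-like symbols), of which 2 were called higher and 7 lower in mkk1/mkk2 than in Col-0 without treatment, and 3 higher and 6 lower after BTH. ATL8 is 1 of 14 ubiquitin ligases, of which 5 were called higher and 6 lower without treatment, and 3 higher and 1 lower after BTH. Over all probe sets 16.1% were called higher and 17.2% lower without treatment, and 11.4% higher and 10.2% lower after BTH. CSLD2 and ATL8 were picked out of these families by the rule, so their own calls within these counts are no test.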

How the data were processed

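Transcript levels were measured on 24 Affymetrix ATH1 arrays, 3 in each of 8 groups, from biotin-labelled RNA of whole plants. The deposited values are log2 levels per probe set made by the authors with RMA, per the submitters' processing notes. The version, and which arrays were normalized together, are not given in the sources used here. Probe sets were named from the platform annotation, and 13436 of the 13513 with 1 gene symbol matched the TAIR10.1 gene table, which also gave gene order. Depth has no meaning for arrays, and their number limits the precision.

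The rule was applied to group means of the deposited values. A limma (version 3.58.1, R 4.3.3) model with 8 group means was fitted to all 22746 non-control probe sets (64 controls left out), with Benjamini-Hochberg adjustment over all of them and calls at 0.05. It gave 7 comparisons beside the 5 contrasts of the rule, and the code was tested on simulated data. The 5 contrasts were not tested. The BTH change in mkk1/mkk2 follows from them and is only described, the comparisons of a single mutant with Col-0 share the rule's Col-0 arrays, and mkk2 against mkk1 uses neither. The members, gene lists and tests were chosen with earlier results of these data known.

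Named were the 15 genes with the largest mean difference, all with a gene name, up to 8 called per direction and comparison, the 3 nearest each side of a threshold, up to 4 per list, and genes within 10 genes of another. Examples beyond these were chosen after their values were seen. In mkk1/mkk2, the deviations of same-lettered untreated and BTH-treated arrays correlated at 0.31, 0.29 and 0.17. Between genotypes, where no pairing is claimed, such values ran from -0.21 to 0.58. Whether the letters pair the mkk1/mkk2 samples is thus not settled, and the main fit treated all arrays as unpaired. Alternatives were leaving out arrays, a replicate block, trend, array weights, renormalization, a level filter, other thresholds and subsets of arrays.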

Additional observations from a re-analysis of the deposited data

How the results depend on the processing

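Counts are of genes called in the fit, which for BTH in mkk1/mkk2 is no test independent of the rule. The share of all probe sets called in each alternative fit is not given here. The counts therefore show how far the calls moved and are not results about the 81 genes. Leaving out each of the 24 arrays in turn changed the count of genes called for BTH in mkk1/mkk2 from 4 to between 1 and 13, for untreated mkk1 against Col-0 from 8 to between 3 and 11, for untreated mkk2 against Col-0 from 2 to between 0 and 7, and for either single mutant after BTH from 0 to between 0 and 3, the 3 without untreated mkk1/mkk2 replicate A. It left mkk2 against mkk1 at 0 in both conditions. The rule itself then held 71 to 86 genes, and 36 of the 81 met it without any 1 array.

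In the order BTH in mkk1/mkk2 and then, against Col-0, mkk1 untreated, mkk1 after BTH, mkk2 untreated and mkk2 after BTH, the replicate block gave 4, 7, 0, 2 and 1 calls, and 0 for mkk2 against mkk1. For BTH in mkk1/mkk2 the block changed no call. It fits 1 effect per letter shared by all 8 groups, so it does not model a pairing within mkk1/mkk2 and cannot test it. Array weights gave 7 for BTH in mkk1/mkk2, 23 and 19 for untreated mkk1 and mkk2, 2 for mkk2 after BTH and 1 for mkk2 against mkk1 after BTH. For BTH in mkk1/mkk2, genes with a mean level of at least 5 gave 2 and the 6 arrays alone 0. Centring arrays on their medians gave 5 for untreated mkk1. Leaving out the 3 arrays that stood apart, chosen after seeing the data, gave 15 and 7 for untreated mkk1 and mkk2, 2 after BTH for either, and 3 for untreated mkk2 against mkk1. Without the 3 lowest-correlated arrays, which are the whole untreated mkk1/mkk2 group, there were 7 for untreated mkk2 and 3 after BTH for either single mutant, and the BTH change in mkk1/mkk2 had no value. The causes were not tested.

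The rule held 168 genes at a difference of at least 1, 41 at 2, 37 and 143 with BTH changes within 0.25 and 1, and 37 with a mean level of at least 5. No called gene changed direction in any of these alternatives. Members low in Col-0 are limited by array background.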
